A study of Mus musculus with 6 samples.

Results

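The endothelial identity genes described here are 10 genes chosen by name for their roles in blood vessels: Pecam1, Cdh5, Tie1, Tek, Eng, Emcn, Vwf, Egfl7, Angpt1 and Angpt2. The rule that picks them uses their names and no measured value, and all 10 are among the 53801 genes of the deposited table. RNA was sequenced from PDPN+PDGFRα+ stromal cells sorted from MO5 melanomas, subcutaneous tumors grown from a B16 mouse melanoma line that carries the ovalbumin gene. Of the 6 libraries, 3 came from ADAM12-DTR mice (DTR). These carry a bacterial artificial chromosome transgene that places the diphtheria toxin receptor under the Adam12 promoter, and the other 3 libraries came from non-transgenic littermates (Ctrl). The mice were adults of C57Bl/6 background, and both groups were given diphtheria toxin (DT), so that Ctrl mice share the toxin but lack its receptor. Whether a library holds 1 mouse or a pool, and on which day DT was started for these libraries, are not given in the sources used here.

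DT kills cells that carry its receptor, and the comparison of DTR with Ctrl therefore asks what the sorted stromal cells express after loss of ADAM12+ cells. The sort kept CD45-CD31- cells before selecting PDPN+PDGFRα+ cells. CD31 is the protein product of Pecam1, so endothelial cells were gated out, and the 10 genes were read here in a population that should hold few of them. In bulk RNA, fewer cells of a type and less RNA per cell cannot be told apart.

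Endothelial cells line blood vessels and hold together through adherens junctions, in which VE-cadherin, encoded by Cdh5, is the cadherin of this cell type. The quiescence of a vessel is set in part by the Tie2 receptor tyrosine kinase, encoded by Tek, its relative Tie1, and the secreted angiopoietins. Angiopoietin-1, made largely by mural and other mesenchymal cells, activates Tie2, whereas angiopoietin-2, stored and released by endothelial cells, mostly opposes it and is associated with vessel sprouting and regression in tumors. Eng, Tek and the angiopoietins are not restricted to endothelium, since mesenchymal stromal cells and macrophages can also express some of them.

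Promoter windows are shown for Eng, the most abundant member, for Tek, and for Emcn, the member with the fewest counts. Tek had the largest log2 fold change in size with all 6 libraries, but not with some libraries left out, such as DTR replicate 3. The windows run from 250 bases before to 50 bases after the RefSeq transcription start (GRCm38.p6, strand of the gene, 5′ to 3′). Capitals mark each match to GGAA, the core bound by ETS-family factors such as ERG and FLI1, or to its reverse complement TTCC on the other strand.

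Eng, chr2:32646345-32646644, + strand: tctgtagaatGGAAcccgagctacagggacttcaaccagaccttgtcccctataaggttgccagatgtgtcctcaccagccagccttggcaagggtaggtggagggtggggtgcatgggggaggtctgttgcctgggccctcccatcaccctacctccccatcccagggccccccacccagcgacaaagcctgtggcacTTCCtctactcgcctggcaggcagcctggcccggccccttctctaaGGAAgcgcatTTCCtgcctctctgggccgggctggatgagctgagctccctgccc

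Tek, chr4:94739039-94739338, + strand: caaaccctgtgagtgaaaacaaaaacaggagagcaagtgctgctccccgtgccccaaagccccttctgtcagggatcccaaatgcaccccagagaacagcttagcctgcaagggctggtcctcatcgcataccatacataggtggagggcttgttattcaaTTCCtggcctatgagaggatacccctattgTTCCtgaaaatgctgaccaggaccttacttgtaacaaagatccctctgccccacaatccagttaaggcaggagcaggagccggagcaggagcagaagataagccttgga

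Emcn, chr3:137340828-137341127, + strand: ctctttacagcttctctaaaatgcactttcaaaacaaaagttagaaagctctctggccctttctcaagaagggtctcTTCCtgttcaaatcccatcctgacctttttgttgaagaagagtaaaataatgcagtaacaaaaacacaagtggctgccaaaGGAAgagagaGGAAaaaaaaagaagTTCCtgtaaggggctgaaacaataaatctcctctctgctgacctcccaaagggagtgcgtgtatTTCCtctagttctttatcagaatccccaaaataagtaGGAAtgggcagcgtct

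These windows hold 4 matches in Eng, 2 in Tek and 6 in Emcn, against a median of 3 over 32851 RefSeq promoters of the same length, of which 96.0% hold at least 1. Windows were also found for Tie1, with 9 matches, and for 3 starts of Egfl7, with 5, 4 and 1. A match is a description of the letters and not a bound site.

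The Egfl7 locus also hosts the miR-126a hairpin, the precursor of an endothelial microRNA, and its mature 3p strand is shown with the seed, bases 2 to 8, in capitals.

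mmu-miR-126a-3p, chr2:26591402-26591423, + strand: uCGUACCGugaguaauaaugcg

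The row of the miR-126a hairpin held 0 counts in all 6 libraries. These libraries of long RNA fragments do not measure mature microRNAs. The hairpin shares 73 exon bases with Egfl7 on the same strand, and how reads in overlapping genes were assigned is not given in the sources used here, so nothing is read from this row.

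Library totals ran from 22339635 to 34271929 counts, and 3 counts, the floor below which a level was not read, correspond to 0.0873 to 0.132 CPM. CPM are counts scaled to the library's total times its TMM factor, which corrects totals for differences in composition, and these floors cover counting error only. Adam12 itself was 191 ± 22.1 CPM in Ctrl and 143 ± 27.6 CPM in DTR (SD, n = 3 each). Its log2 fold change was -0.42 in edgeR's quasi-likelihood test (unadjusted p = 0.0265, adjusted p = 0.602). Each DTR library of Adam12 lay below each Ctrl library, which held for 8.18% of all genes tested. Genes of pigment cells were abundant in this labelled stromal sort, with Dct, a melanin synthesis enzyme, at 5751 to 7580 CPM and Tyrp1 at 3103 to 3875 CPM. The summed level of 10 fibroblast genes, among them Col3a1 and Col1a1, ran from 5298 CPM in Ctrl replicate 2 and 5251 CPM in Ctrl replicate 3 to 13780 CPM in Ctrl replicate 1 and 14530 CPM in DTR replicate 3, so libraries of 1 group differed as much as libraries of different groups.

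The members ranged from high counts in each library to near 0. Per kilobase of exon, the scale on which the members' levels are compared with each other, Eng had a mean of 36.5 CPM per kb over the 6 libraries, Tek 3.78, Angpt2 3.65, Vwf 1.08, Pecam1 0.774, Angpt1 0.436, Cdh5 0.129, Tie1 0.0104, Egfl7 0.00981 and Emcn 0.000896 CPM per kb. The lowest Eng library, at 32.3 CPM per kb, lay above the highest library of Tek, at 13.4 CPM per kb, and so above every other member. Tek, between 0.924 and 13.4 CPM per kb, overlapped Angpt2, between 2.43 and 4.33 CPM per kb. Vwf, between 0.755 and 1.33 CPM per kb, lay below Angpt2 in every library and overlapped Pecam1, between 0.420 and 1.29 CPM per kb. Angpt1, between 0.0402 and 0.756 CPM per kb, overlapped Pecam1, and Cdh5, between 0 and 0.326 CPM per kb, overlapped Angpt1.

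**Figure D1:**
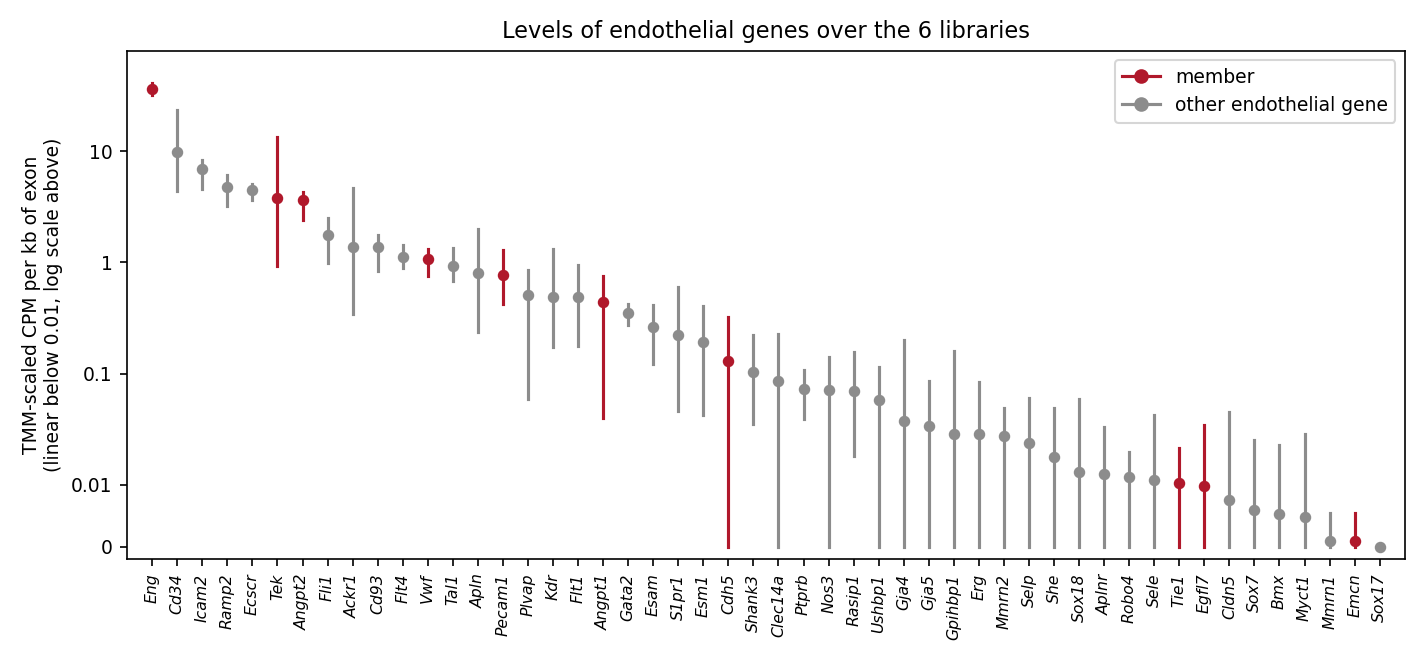
Mean level of each endothelial gene in TMM-scaled CPM per kilobase of exon (vertical axis, linear below 0.01 and logarithmic above), with a line from the lowest to the highest of the 6 libraries, for the 10 members (red) and 40 other endothelial genes (grey), ordered by mean. Eng is the highest of all, and Tie1, Egfl7 and Emcn sit at the low end beside transcription factors and junction genes such as Sox17 and Cldn5.

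The members Tie1, Egfl7 and Emcn were at or near the floor, whereas Pecam1 and Vwf were above it in every library. Tie1 had 2, 0 and 3 counts in Ctrl and 3, 1 and 0 counts in DTR, 9 counts in all 6 libraries. Egfl7, which encodes a secreted matrix protein of endothelial cells, had 3, 0 and 0 counts in Ctrl and 0, 0 and 2 counts in DTR. Emcn, a sialomucin of capillary and venous endothelium, had 1 count in DTR replicate 1 and 0 counts in the other libraries. No library passed the floor of 3 counts for these 3 genes, they were not tested, and no fold is given for them. Among 40 other endothelial genes, 10 had at most 3 counts in every library, among them Cldn5, the tight junction claudin of endothelium, with 2 counts in all, and Sox17 with 0. The other 30 had more than 3 counts in at least 1 library, and 21 of the 40 passed the filter on low counts.

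**Figure D2:**
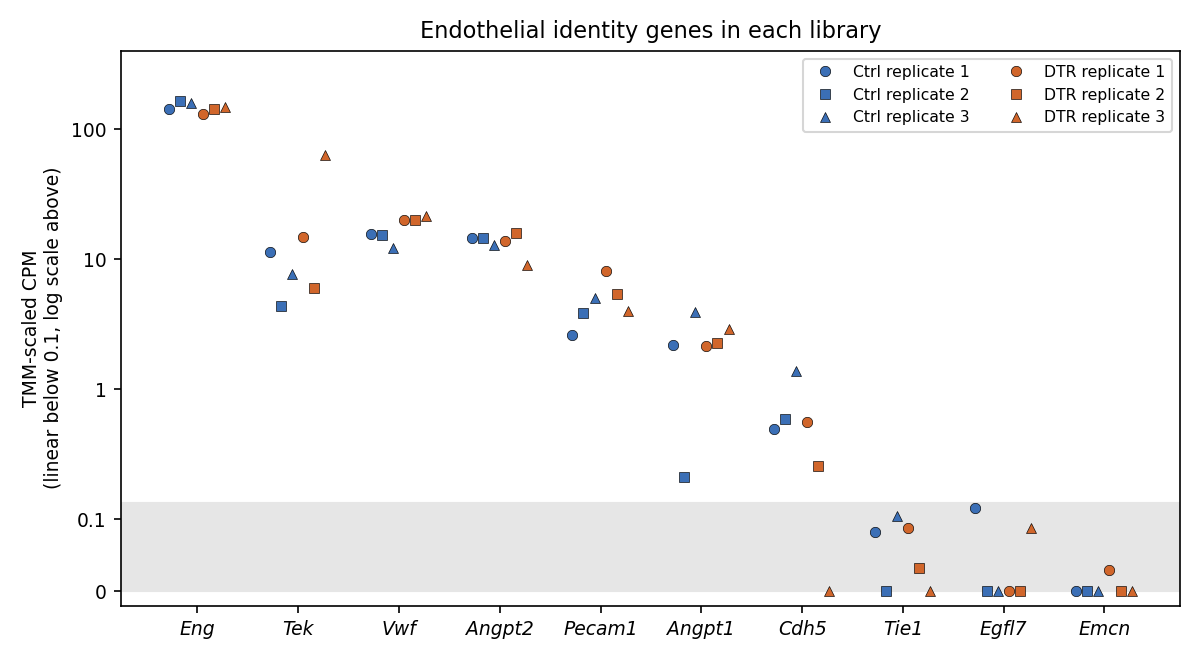
Level of each member in each library in TMM-scaled CPM (vertical axis, linear below 0.1 and logarithmic above), with Ctrl in blue, DTR in orange, a symbol for each replicate number, and the grey band reaching to the highest of the 6 library floors of 3 counts. Eng is level across libraries, Tek has 1 high library in DTR, Vwf is higher in each DTR library, and Tie1, Egfl7 and Emcn stay inside the band.

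Across the 7 members that passed the filter on low counts, none passed an adjusted p of 0.05 in edgeR's quasi-likelihood test, 4 were higher in DTR and 3 were lower. The percentage of all 15133 tested genes that passed was likewise 0, with a lowest adjusted p of 0.602, and DESeq2's Wald test called 0 members and 0.152% of its 20360 genes. At an unadjusted p under 0.05 in edgeR's test, 2 members, Vwf and Tek, were higher in DTR and 0 were lower. Of all 15133 genes tested, 577 (3.81%) were higher and 622 were lower at this threshold. The median log2 fold change of the 7 members was 0.20, against -0.0029 over all genes tested, and it changed sign without Ctrl replicate 2, to -0.09. This median and the 3 lower members include Cdh5, which passed the filter mostly through Ctrl. The labels do not say that these libraries came from separate mice, although the study counts mice as replicates unless stated otherwise, and the p-values measure only the spread between these samples.

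Vwf was the only member whose groups did not overlap. The gene (chr6:125546774-125686679, + strand, GRCm38, as for the positions of the other members) encodes von Willebrand factor, the large plasma glycoprotein that tethers platelets and is made by endothelial cells and megakaryocytes. Its level was 15.5, 15.4 and 12.1 CPM in Ctrl and 19.8, 19.9 and 21.3 CPM in DTR, from 345 to 682 counts per library. Each DTR library lay above each Ctrl library, as it did for 6.32% of all genes tested, and below it for 8.18%. The means were 14.3 ± 1.92 CPM in Ctrl and 20.4 ± 0.846 CPM in DTR (SD, n = 3 each), 1.42-fold higher, with a log2 fold change of 0.51 (SE 0.140, 95% interval 0.18 to 0.83, unadjusted p = 0.00691, adjusted p = 0.602). A two-sided exact permutation test gave p = 0.1, the smallest that 3 libraries against 3 allow.

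Vwf and Pecam1 overlapped per kilobase of exon, whereas Cdh5 was lower. In the 5 libraries with a Cdh5 count, Vwf was 2.32 to 20.2 times Cdh5 per kilobase of exon. The platelet and megakaryocyte list, 8 genes of which 2 passed the filter and 0 were called, summed to 3.61 to 6.70 CPM per library and was highest in Ctrl replicate 1. The genes with the highest CPM were Itga2b, a platelet integrin, at 2.23 ± 0.526 CPM in Ctrl and 2.63 ± 0.708 CPM in DTR, and the platelet chemokine Pf4, at 2.44 ± 1.37 and 1.08 ± 1.09 CPM (SD, n = 3 each). The part of any of these cells in the Vwf counts was not tested.

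Tek, the Tie2 receptor gene (chr4:94739289-94874976, + strand), was dominated by 1 library. It was 11.2, 4.36 and 7.70 CPM in Ctrl and 14.7, 5.99 and 62.9 CPM in DTR, with 1426 counts in DTR replicate 3 against 104 to 507 in the others. DTR replicate 3 held 58.8% of the summed CPM of the 6 libraries, whereas DTR replicate 2 lay inside the Ctrl range and DTR replicate 1 above it. The means were 7.76 ± 3.44 CPM in Ctrl and 27.9 ± 30.6 CPM in DTR (SD, n = 3 each), with a log2 fold change of 1.84 (SE 0.778, 95% interval 0.04 to 3.63, unadjusted p = 0.0462, adjusted p = 0.622; exact permutation p = 0.3). Without DTR replicate 3 the log2 fold change was 0.42.

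DTR replicate 3 also had the highest fibroblast sum, 14530 CPM, next to 13780 CPM in Ctrl replicate 1. Most of this sum comes from Col1a1, Col1a2 and Col3a1, and DTR replicate 3 was the highest library for 8 of the 10 fibroblast genes. Col1a1 and Col1a2 were highest in Ctrl replicate 1, at 4289 and 2540 CPM against 3023 and 2433 CPM in DTR replicate 3. Tek was at 11.2 CPM in Ctrl replicate 1. Pdgfra was at 125 CPM in Ctrl replicate 1 and 132 CPM in DTR replicate 3. DTR replicate 3 had 601 CPM of Dcn, a matrix proteoglycan, against 82.2 to 245 CPM in the others. It had 418 CPM of Mmp2, a matrix metalloproteinase, against 66.0 to 158 CPM. The same library was highest for Cd34, a sialomucin of endothelial and of some mesenchymal cells, at 171 CPM against 32.0 to 83.3 CPM in the others, and for Ackr1, the atypical chemokine receptor of venules, at 6.53 CPM against 0.483 to 1.51 CPM. It had 12.0 CPM of Kdr, another endothelial gene, against 1.58 to 4.53 CPM in the others. Its Vwf level, 21.3 CPM, was the highest of the 6 libraries. It had 0 counts for Cdh5 and Tie1, the lowest Angpt2 level of the 6 libraries and 2 counts of Egfl7. Which cells held the Tek counts of this library was not tested.

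The adhesion genes Pecam1 and Cdh5 were not called, and the groups overlapped in each. Pecam1 (chr11:106654217-106750628, - strand), the cell-cell adhesion receptor CD31 against which the sort selected, was 2.61, 3.81 and 5.03 CPM in Ctrl and 8.03, 5.41 and 4.01 CPM in DTR. The groups overlapped through DTR replicate 3, which lay below Ctrl replicate 3. Its log2 fold change was 0.61 (SE 0.350, 95% interval -0.20 to 1.42, adjusted p = 0.665; exact permutation p = 0.2). It was 0.31 without DTR replicate 1 and 0.86 without Ctrl replicate 3.

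Cdh5 (chr8:104101625-104144511, + strand) had 12, 14 and 39 counts in Ctrl and 19, 8 and 0 counts in DTR, or 0.490, 0.586 and 1.37 CPM and 0.553, 0.258 and 0 CPM. DTR replicate 1 lay inside the Ctrl range, and DTR replicate 3, the library with the high Tek level, was the one at 0. Its 22339635 counts allow up to 0.132 CPM for a count of 0. The log2 fold change was -1.53 with a 95% interval from -3.74 to 0.68 (SE 0.956, adjusted p = 0.687; exact permutation p = 0.2), and it was -2.53 without DTR replicate 1, -1.003 without DTR replicate 3 and -0.93 without Ctrl replicate 3. All 3 Ctrl libraries but only DTR replicate 1 had at least 10 counts, so Cdh5 passed the filter mostly through Ctrl, and nothing is read from its direction.

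Eng (chr2:32646595-32682669, + strand), encoding endoglin, a co-receptor for TGF-β family ligands that is also carried by mesenchymal stromal cells, was the steadiest of the abundant members. It was 143, 166 and 157 CPM in Ctrl and 131, 142 and 149 CPM in DTR, from 3372 to 4498 counts per library. DTR replicate 3 lay above Ctrl replicate 1, and the groups overlapped. The log2 fold change was -0.15 (SE 0.0918, adjusted p = 0.687; exact permutation p = 0.2), with a 95% interval from -0.36 to 0.07. Eng was 25.1 to 84.2 times Pecam1 per kilobase in the same libraries.

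**Figure D3:**
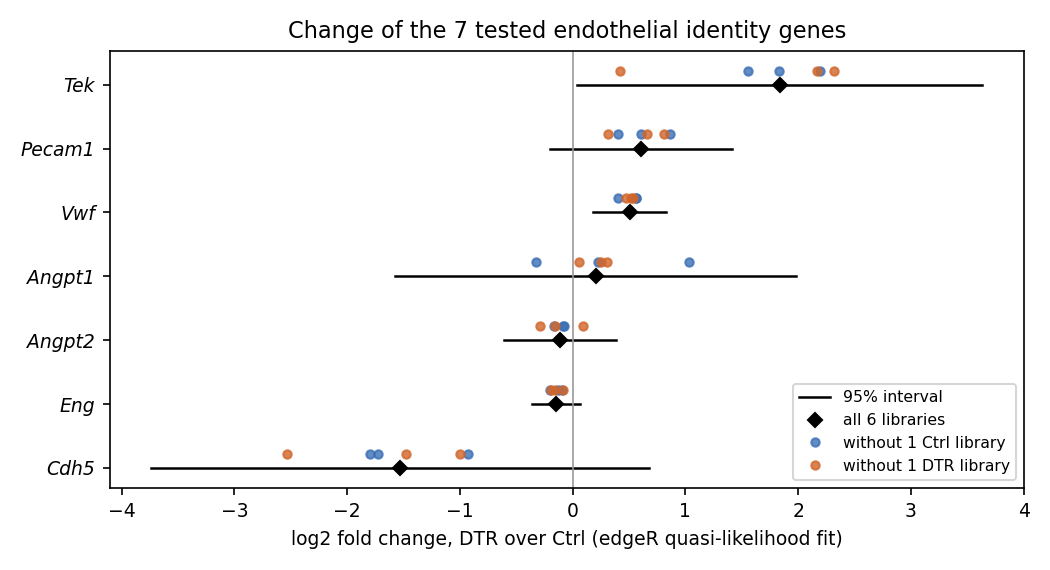
Log2 fold change of DTR over Ctrl (horizontal axis) for the 7 tested members from edgeR's quasi-likelihood fit, with the estimate from all 6 libraries (black diamonds), its 95% interval (lines) and the estimate with 1 Ctrl (blue) or 1 DTR (orange) library left out. The interval of Vwf is narrow and above 0, Tek is at 0.42 without DTR replicate 3, and Angpt1 and Angpt2 lie on both sides of 0.

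The ligands of Tie2 differed in level and not detectably between groups. Angpt1 (chr15:42424723-42676977, - strand) was 2.16, 0.209 and 3.94 CPM in Ctrl and 2.15, 2.25 and 2.91 CPM in DTR, with 5 counts in Ctrl replicate 2 against 53 to 112 in the other libraries. The DTR libraries lay within the Ctrl range, and the log2 fold change was 0.20 with a 95% interval from -1.57 to 1.98 (SE 0.768, adjusted p = 0.950; exact permutation p = 0.8). Without Ctrl replicate 2 it was -0.33, and without Ctrl replicate 3 it was 1.03. In the annotation, 14.2% of the exon bases of Angpt1 lie opposite an antisense gene, Gm17473, and the counting used strand.

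Angpt2 (chr8:18690263-18741562, - strand), which lies within Mcph1 on the opposite strand and shares 0 exon bases with it, was 14.6, 14.4 and 12.9 CPM in Ctrl and 13.8, 16.0 and 8.95 CPM in DTR. DTR replicate 2 was the highest and DTR replicate 3 the lowest of the 6 libraries. The log2 fold change was -0.11 with a 95% interval from -0.61 to 0.39 (SE 0.216, adjusted p = 0.906; exact permutation p = 0.8), and without DTR replicate 3 it was 0.09. Angpt2 was 4.34 to 9.995 times Angpt1 per kilobase of exon in 5 libraries and 97.3 times in Ctrl replicate 2, where Angpt1 rested on 5 counts.

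A list of 10 other genes of the angiopoietin-Tie pathway holds receptors' partners, regulators and targets. Of these, 9 passed the filter, 0 were called, 7 were higher and 2 lower in DTR, and the median log2 fold change was 0.05. The 2 lower were Ptprb and Pdgfb, and Pdgfb passed the filter through the Ctrl libraries. Foxo1, the transcription factor that Tie2 signaling keeps out of the nucleus, was 15.8 ± 1.10 CPM in Ctrl and 23.8 ± 2.96 CPM in DTR (SD, n = 3 each), with a log2 fold change of 0.59 and an unadjusted p of 0.00247 in edgeR's quasi-likelihood test (adjusted p = 0.602). Each DTR library of Foxo1 lay above each Ctrl library, which held for 1 of the 9 tested genes and for 6.32% of all genes tested. Svep1, a matrix protein that binds Tie1, was 67.3 ± 14.6 CPM in Ctrl and 134 ± 84.6 CPM in DTR, and DTR replicate 3, at 224 CPM, was again the highest (log2 fold change 0.99, adjusted p = 0.629).

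Pdgfb, the ligand by which endothelial cells recruit pericytes, was at the low end, with 13, 23 and 15 counts in Ctrl and 5, 3 and 1 counts in DTR. It passed the filter on low counts through the Ctrl libraries, and DTR replicates 2 and 3 were not above the floor of 3 counts, so no fold or p is given for it. Ptprb, the phosphatase that limits Tie2 activity, was 1.16 ± 0.263 CPM in Ctrl and 0.781 ± 0.246 CPM in DTR. Of the other named genes, Itgb1, an integrin subunit, was at 633 to 694 CPM and Klf4, a transcription factor, at 51.1 to 195 CPM.

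Of the 40 other endothelial genes, 21 passed the filter and 0 were called, with 9 higher, 12 lower and a median log2 fold change of -0.07. The lowest was Flt1, a VEGF receptor, at 11.9, 5.15 and 12.8 CPM in Ctrl and 2.39, 2.54 and 4.63 CPM in DTR, with a log2 fold change of -1.65, an unadjusted p of 0.00382 and an adjusted p of 0.602. Each DTR library of Flt1 lay below each Ctrl library, and Plvap, the diaphragm protein of fenestrated endothelium, was the only other gene of the list for which this held, 2 of 21 tested, where 8.18% of all genes tested did so. S1pr1, the sphingosine-1-phosphate receptor of endothelium and lymphocytes, was next, at 1.03 ± 0.853 CPM in Ctrl and 0.331 ± 0.0717 CPM in DTR. After Cd34, the genes with the highest CPM were Ramp2, at 10.6 to 20.0 CPM, and Icam2, at 8.70 to 15.9 CPM, and in both the groups overlapped. Of 6 lymphatic endothelial genes, 3 passed the filter, 0 were called and the median log2 fold change was -0.03. Flt4, Prox1 and Lyve1 were at 9.01 ± 2.41, 7.998 ± 0.607 and 1.17 ± 1.36 CPM in Ctrl and 9.54 ± 1.99, 7.83 ± 1.00 and 0.711 ± 0.528 CPM in DTR (SD, n = 3 each).

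Markers of other cell types varied between libraries beside the members. The 10 fibroblast genes were all higher in DTR, with a median log2 fold change of 0.43 and 0 of them called, and the highest sum of each group differed little. Of 8 tested pericyte and smooth muscle genes, 7 were lower, with a median of -0.56 and sums of 75.0 to 167 CPM in Ctrl and 81.0 to 98.8 CPM in DTR. Those with the highest CPM were Pdgfrb, at 45.8 ± 25.4 and 40.1 ± 13.4 CPM, and Mcam, a gene shared by pericytes, endothelium and melanoma, at 43.0 ± 8.98 and 32.8 ± 4.73 CPM. Leukocyte genes, among them Ptprc, which encodes the gated CD45, and Lyz2, summed to 113 to 191 CPM in Ctrl and 131 to 140 CPM in DTR, and 10 melanoma genes to 18950 to 21750 and 17800 to 20840 CPM. The median log2 fold change was -0.28 over 9 tested leukocyte genes and -0.10 over the 10 melanoma genes, with 0 called in either. The other endothelial genes summed to 130 to 160 CPM in Ctrl and 116 to 271 CPM in DTR, where Cd34 made up most of the highest value.

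**Figure D4:**
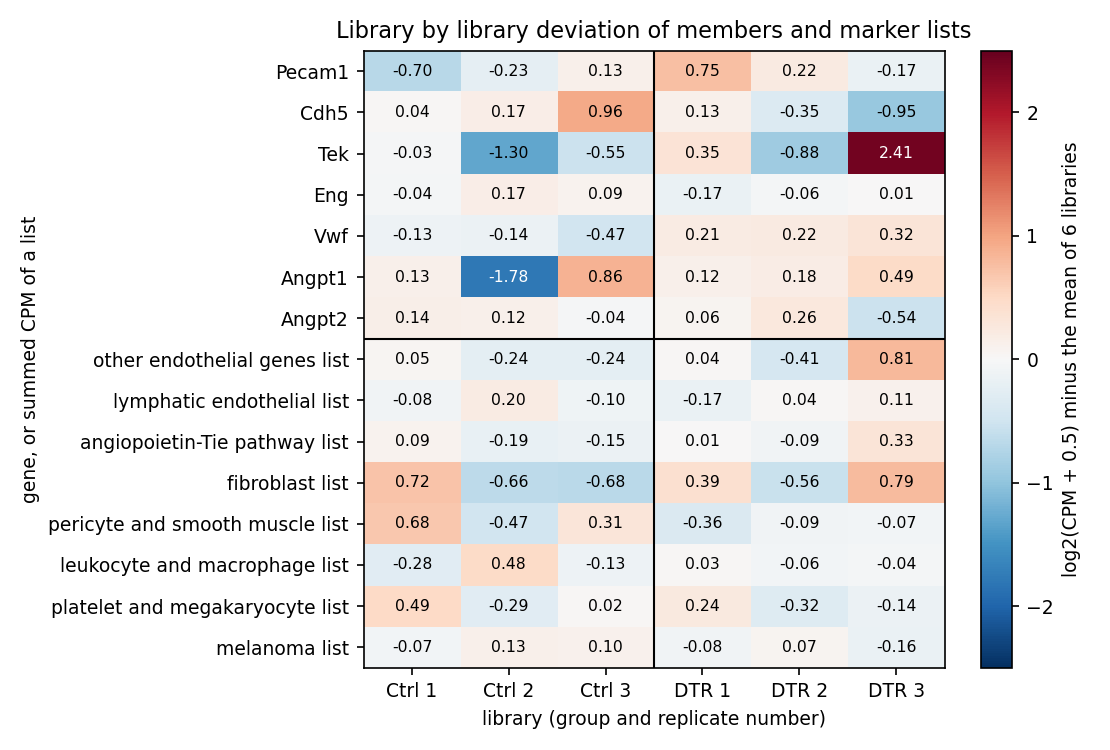
Deviation of each library from the mean of the 6 libraries in log2(CPM + 0.5) for the 7 tested members (upper rows) and for the summed CPM of each list (lower rows), red above and blue below the mean. Vwf is below 0 in each Ctrl library and above 0 in each DTR library, Tek reaches 2.41 in DTR replicate 3, and the fibroblast list is high in Ctrl replicate 1, DTR replicate 1 and DTR replicate 3.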

How the data were processed

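RNA-seq counts of 3 Ctrl and 3 DTR libraries were used. The authors prepared stranded total RNA libraries, trimmed reads with cutadapt 3.4, aligned them to GRCm38 with STAR 2.7.3a and counted them per gene, by strand, with featureCounts 2.0.1, per the labels and methods, and deposited raw counts, the values used here, beside normalized ones. The 6 normalized columns and the authors' own comparison columns were not used.

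Genes were kept by edgeR's filterByExpr (minimum count 10, minimum total 15), which left 15133 of 53801, and were compared by edgeR's quasi-likelihood test (two-sided, TMM factors, no covariate) with Benjamini-Hochberg adjustment over all genes tested and a threshold of 0.05. Standard errors were derived from each log2 fold change and its F statistic. For single genes, log2(CPM + 0.5) was also compared by exact permutation (two-sided). Exon lengths and overlaps come from GENCODE M21 (GRCm38). R 4.3.3, edgeR 4.0.16, DESeq2 1.42.0, Python 3.11.15, scipy 1.17.1 and matplotlib 3.10.9 were used. The fits were tested on simulated data.

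The members and gene lists were chosen with earlier results of these data known. All members are named. From the endothelial, lymphatic and angiopoietin-Tie lists, the 3 genes with the highest CPM, not corrected for length, and the 2 lowest and 2 highest log2 fold changes are named, and from each other list the 2 with the highest CPM. Adam12, Cldn5, Sox17, Plvap, Kdr, Dcn, Mmp2, Col1a2 and Pdgfra were named after their values were seen. Alternatives were DESeq2-type size factors, all genes with a count, DESeq2's Wald test, a replicate block, a loess offset on genomic span and each library left out.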

Additional observations from a re-analysis of the deposited data

How the results depend on the processing

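None of the 11 alternatives per member called any of the 7 tested members, with lowest adjusted p-values of 0.405 for Vwf (DESeq2), 0.480 for Tek and 0.510 for Cdh5. The median log2 fold change of the members, 0.20, was 0.053 with all genes that had at least 1 count, which adds 3 members near 0 counts, 0.51 with the replicate number as a block and -0.025 with an offset for genomic span. Over the 7 members tested in the report, a choice made after seeing that value, the median without the filter was 0.21. Leaving out each library in turn gave a median between -0.088 and 0.40, between 1 and 3 members whose groups did not overlap (3 without Ctrl replicate 1 or DTR replicate 3), and between 0 and 2 genes called, with 2 called without Ctrl replicate 1. With a library left out, 23.0 to 28.8% of all genes tested did not overlap, and Vwf was among the members that did not in each case. DESeq2's Wald test called 31 of 20360 genes, 0.152%, and no member. Angpt1 turned to -0.025 with the offset and ran from -0.33 to 1.03 with a library left out, and Angpt2 ran from -0.29 to 0.092. Cdh5 ran from -2.53 to -0.93 with a library left out. Pecam1, Tek, Eng and Vwf kept their direction under these alternatives. The cause of these changes was not tested. Whether replicate numbers pair the samples cannot be told from so few libraries. The deviations of libraries with the same number correlated at 0.114, 0.132 and -0.042, and those with different numbers at -0.215 to 0.102. With the block 0 genes and 0 members were called, as without it. At these depths Tie1, Emcn and Egfl7 cannot be compared.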
